A study of Homo sapiens with 4 samples.

Results

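The coagulation and fibrinolysis genes were a set of 35 genes taken by name from the 58302 genes that each of 4 HepG2 libraries lists. All 35 names were found, each at a single protein-coding gene. HepG2 is a line grown from a human hepatocellular carcinoma, listed as wild type, and the cells were kept in MEM medium with 10% fetal bovine serum. Melatonin at 1 mM was given for 24 h or 48 h, and the controls received DMSO for the same times. Each of the 4 conditions was sequenced as 1 library, so there is no replicate within a condition and no test of the treatment at either time. All libraries come from 1 tumour line in culture, without blood or vessel wall.

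Blood clotting is a cascade of plasma proteases that ends with thrombin, which cuts fibrinogen into fibrin. Hepatocytes make most of these proteases and cofactors, as well as fibrinogen, and they also make most of the inhibitors that hold the cascade in check. Fibrinolysis is the opposite process, in which plasmin, cut from plasminogen by the activators PLAT and PLAU, dissolves fibrin. Several factors bind membranes only after the carboxylase GGCX, fed by the vitamin K reductase VKORC1, has modified them. By role, 16 of the genes were grouped as clotting factors, 10 as anticoagulants and plasma inhibitors, 7 as fibrinolysis genes and 2 as enzymes of the vitamin K cycle.

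Levels are FPKM, in which the authors divided the reads of a gene by its length and by a library size. Where values are given in pairs, DMSO stands before melatonin. The number of reads behind each value could be worked out from FPKM and length, and the reads on genes ranged from 21616676 to 23086025 per library. The 35 genes held 1.25% to 1.57% of them, while mitochondrial genes held 9.77% to 20.0%. Intervals are 95% exact intervals of the reads, and like the floor of 3 reads they cover counting error only. Of the 10 hepatocyte markers all had an FPKM of at least 1, with ALB between 2717 and 3343, and at 48 h AFP was called lower (FPKM of 1902 and 782) and TTR higher (50.6 and 256). None of the 5 endothelial and none of the 5 fibroblast markers reached an FPKM of 1, and their summed FPKM was 0.543 to 1.18 and 0.00459 to 0.0958. Of the 5 leukocyte markers only CD14 reached it, in the DMSO 24 h library, and their summed FPKM was 0.293 to 1.15. KDR, TEK, CD3E, COL1A2, COL3A1 and DCN had 0 reads in all 4 libraries. In bulk RNA, fewer cells of a kind and less RNA per cell cannot be told apart.

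HepG2 cells expressed 24 of the 35 genes at an FPKM of at least 1 in some library, and 8 of these at 100 or more in every library. The 8 were A2M, APOH, FGA, FGG, SERPINF2, F2, SERPINA5 and SERPIND1. A2M, a broad plasma protease inhibitor, was the most abundant, with an FPKM of 1050 (1044 to 1056) in DMSO and 1017 in melatonin at 24 h, and 1220 and 1218 at 48 h. The ratio of melatonin to DMSO was 0.969 (0.961 to 0.976) and 0.999 (0.992 to 1.005), close to 1 at both times. The plot of levels by gene shows that the roles overlapped. Among the genes shown, clotting factors ran from KNG1, a contact factor (FPKM of 0.506 to 1.18), to FGA and FGG (282 to 384). Anticoagulants and plasma inhibitors ran from PROZ (2.78 to 5.04) to A2M.

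**Figure D1:**
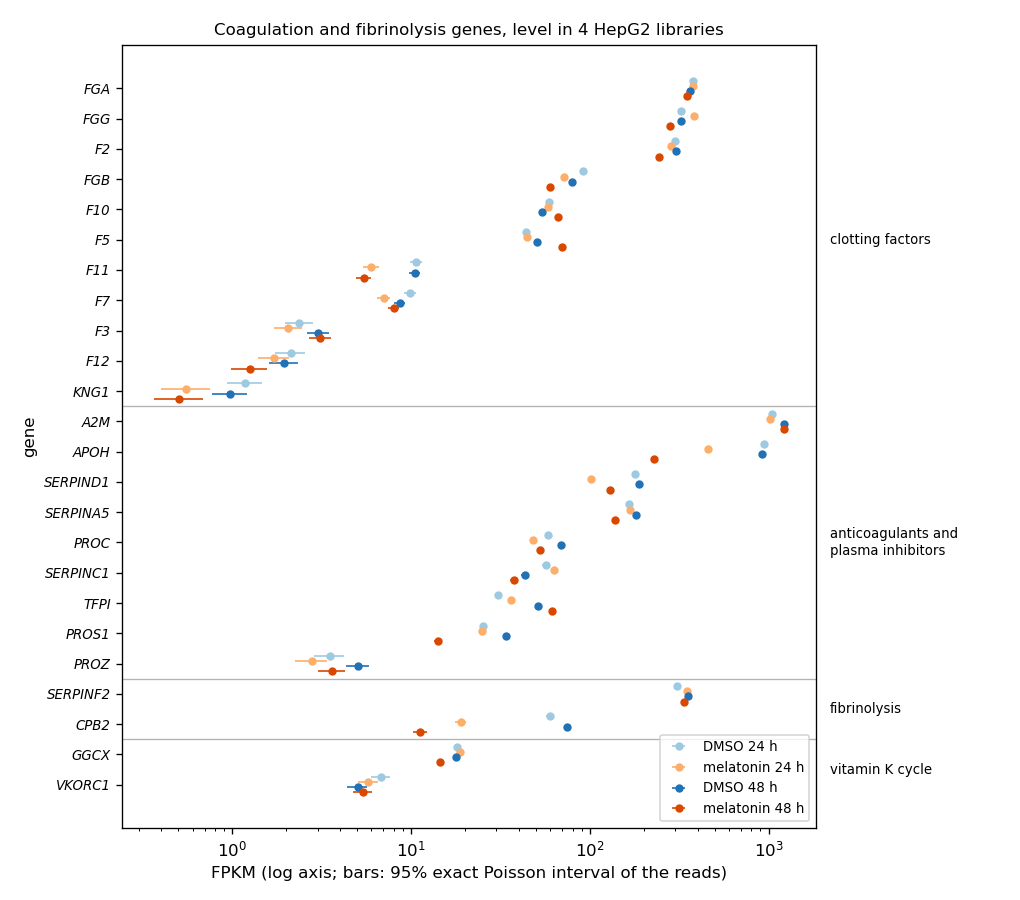
FPKM (log axis) of the 24 genes that reached an FPKM of 1, with 1 row per gene, 1 point for each treatment and time, and bars for the 95% exact Poisson interval of the reads. The melatonin points lie to the left of both DMSO points for CPB2, APOH, SERPIND1 and F11, and the points of A2M and FGA lie close together.

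Of the 24 genes compared at 24 h, 2 were at least 2-fold lower in the melatonin library, and at 48 h 3 of 23 were, while none was higher by that much. Genes with an FPKM of 1 or more in either library of a comparison are named tested, which means no test between replicates, and were called when log2((melatonin FPKM + 1)/(DMSO FPKM + 1)) was at least 1 or at most -1. The 2 genes called at 24 h were CPB2 and APOH, which is 8.33% of the tested members, where 2.93% of all 13582 genes tested and 0.439% of the protein-coding genes tested were called lower. At 48 h PROS1 joined them, which makes 3 of 23, where 3.32% of all 13805 genes and 1.36% of the protein-coding genes were called lower. CPB2 and APOH were lower at both times, a pattern that 0.204% of the 10312 protein-coding genes tested at both times showed. In the upward direction, 1.42% of all genes were called at 24 h and 2.39% at 48 h. APOH at 24 h was close to the threshold, with a log2 fold change of -1.05, and was not called after rescaling to TPM (-0.87) or when each library was scaled to the sum of its reads on genes, called the plain sum here (-0.98).

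CPB2 encodes the plasma carboxypeptidase that, once activated by thrombin, trims fibrin and slows its lysis. Its FPKM was 59.6 (57.0 to 62.3) in the DMSO 24 h library, 18.9 (17.5 to 20.4) in melatonin 24 h, 74.7 (72.0 to 77.5) in DMSO 48 h and 11.2 (10.2 to 12.3) in melatonin 48 h. Both melatonin libraries were far below both DMSO libraries, with 678 and 440 reads against 1934 and 2896. The ratio of melatonin to DMSO was 0.317 (0.290 to 0.346) at 24 h and 0.150 (0.135 to 0.166) at 48 h. On the log2(FPKM + 1) scale the fold changes were -1.61 and -2.63. Among protein-coding genes backed by 50 or more reads in either library, CPB2 had the 8th lowest log2 fold change of 11032 at 24 h and the lowest of 11261 at 48 h. The antisense gene CPB2-AS1 overlaps it and had 55 and 27 reads at 24 h and 60 and 29 at 48 h. Whether the authors' counting used strand is not given in the sources used here, so reads of the pair cannot be told apart.

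APOH encodes beta-2-glycoprotein I, a plasma protein that binds anionic phospholipids. With DMSO its FPKM was 945 (933 to 957) at 24 h and 919 (908 to 930) at 48 h, the second highest of the 35 genes. With melatonin it was 457 (449 to 465) and 229 (223 to 234). The DMSO libraries were close to each other and the melatonin libraries lay below them, at 0.484 (0.473 to 0.494) of the DMSO level at 24 h and 0.249 (0.242 to 0.256) at 48 h. APOH and A2M stood almost level in the DMSO 24 h library, with a ratio of A2M to APOH of 1.11, and at 5.33 in the melatonin 48 h library. At 48 h APOH had the 8th lowest log2 fold change of the same 11261 genes, and at 24 h the 38th lowest of 11032.

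PROS1 encodes protein S, the cofactor of activated protein C. The FPKM of PROS1 was 25.3 (24.2 to 26.4) and 24.9 (23.9 to 25.9) at 24 h, and 33.9 (32.7 to 35.1) and 14.2 (13.5 to 15.0) at 48 h. The libraries of 24 h differed by less than counting error, and melatonin 48 h was the lowest of the 4 while DMSO 48 h was the highest. The ratio was 0.985 (0.927 to 1.05) at 24 h and 0.419 (0.394 to 0.446) at 48 h, and the log2 fold changes differed by -1.18 between the times. Its sign at 24 h turned positive with TPM (0.15) and with the plain sum (0.04). Protein S has a pseudogene, PROS2P, which had 0 reads in every library, and the sources do not say how the counting treated reads that match both.

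**Figure D2:**
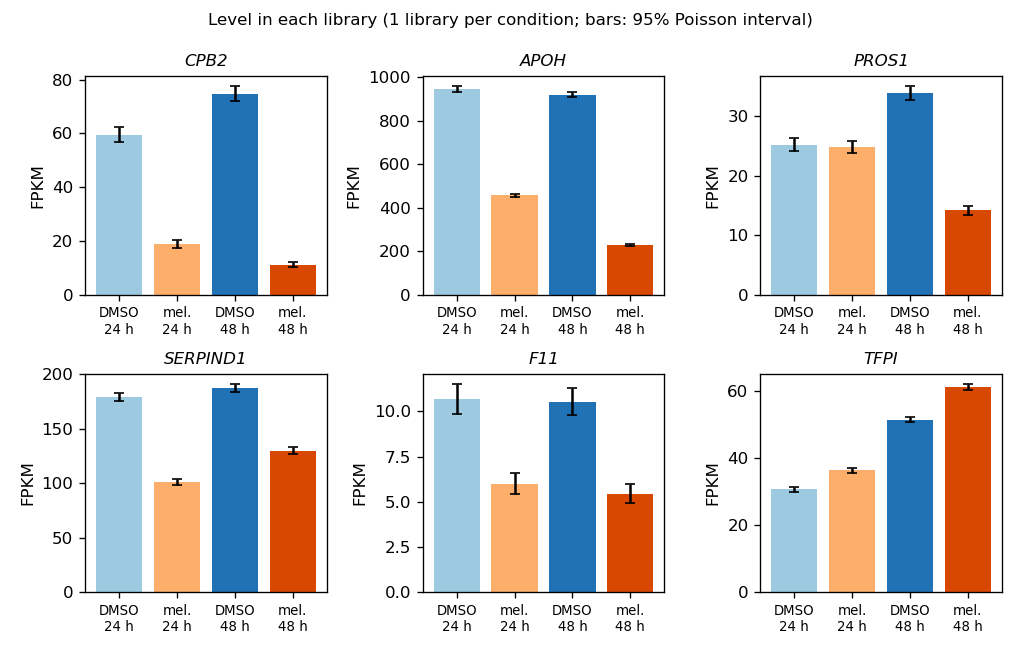
FPKM (bars from 0) of CPB2, APOH, PROS1, SERPIND1, F11 and TFPI in the 4 libraries, with 95% exact Poisson intervals. CPB2 and APOH are low in both melatonin libraries, PROS1 only in that of 48 h (14.2), and TFPI is higher at 48 h than at 24 h with either treatment.

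The promoters of the called genes are shown to give the sequence that lies before their RefSeq starts. Those of SERPIND1 and F11, the next lowest, and of FGA, which barely moved, are shown with them. Each runs 5' to 3' on the strand of the gene and covers the 250 bases before the start that RefSeq gives on GRCh38.p14, ending 8 bases before it in APOH and 38 in PROS1 because GENCODE 44 annotates the bases nearer to it as untranslated exon. The gene spans deposited with the FPKM reach upstream of the RefSeq start in each of these genes, so every window lies at least partly inside its span. The span of APOH runs to 66256525 and holds its whole window. That of F11 begins at 186265945 and that of SERPIND1 at 20773879. Capitals mark matches on either strand to GTTAAT, TTGCNNAA (C/EBP), TGTTTNC (FOXA) or TATAAA (the TATA box), and no matches overlapped in these windows. The windows are chr13:46105034-46105283 for CPB2 (minus strand), chr17:66229423-66229665 for APOH (minus), chr3:93973934-93974146 for PROS1 (minus), chr22:20773863-20774112 for SERPIND1 (plus), chr4:186265939-186266188 for F11 (plus) and chr4:154590743-154590992 for FGA (minus).
CPB2: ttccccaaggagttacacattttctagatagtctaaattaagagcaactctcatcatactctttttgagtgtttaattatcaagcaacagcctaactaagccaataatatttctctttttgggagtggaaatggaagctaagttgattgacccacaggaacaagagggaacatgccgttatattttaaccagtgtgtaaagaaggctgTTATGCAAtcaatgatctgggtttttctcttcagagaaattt
APOH: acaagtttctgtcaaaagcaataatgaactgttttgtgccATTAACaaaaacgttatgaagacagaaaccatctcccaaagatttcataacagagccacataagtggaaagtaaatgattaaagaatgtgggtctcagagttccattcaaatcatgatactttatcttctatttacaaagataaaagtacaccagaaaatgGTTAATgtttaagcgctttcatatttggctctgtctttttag
PROS1: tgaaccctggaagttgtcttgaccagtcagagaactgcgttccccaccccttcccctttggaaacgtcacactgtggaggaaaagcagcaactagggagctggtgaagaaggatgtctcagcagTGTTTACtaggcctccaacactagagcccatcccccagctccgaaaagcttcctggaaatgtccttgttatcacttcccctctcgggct
SERPIND1: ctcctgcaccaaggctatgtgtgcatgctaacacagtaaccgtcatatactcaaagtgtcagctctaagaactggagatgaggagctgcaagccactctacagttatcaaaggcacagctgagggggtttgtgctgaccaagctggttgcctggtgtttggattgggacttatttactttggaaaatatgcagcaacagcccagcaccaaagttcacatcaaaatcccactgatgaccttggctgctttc
F11: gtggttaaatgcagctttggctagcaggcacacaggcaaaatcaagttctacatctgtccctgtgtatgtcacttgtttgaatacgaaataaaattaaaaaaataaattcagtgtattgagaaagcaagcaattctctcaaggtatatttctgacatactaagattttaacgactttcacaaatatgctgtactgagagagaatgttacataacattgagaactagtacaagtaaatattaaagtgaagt
FGA: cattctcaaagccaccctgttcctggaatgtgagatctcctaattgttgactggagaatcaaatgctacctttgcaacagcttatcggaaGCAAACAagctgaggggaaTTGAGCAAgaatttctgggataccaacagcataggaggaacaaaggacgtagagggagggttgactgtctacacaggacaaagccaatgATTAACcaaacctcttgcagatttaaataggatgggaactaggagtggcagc
None of the 6 windows held TATAAA. APOH held 2 matches to GTTAAT, the nearer of them starting 49 bases before the start, and CPB2 held a C/EBP match 42 bases before the start. PROS1 held a FOXA match, SERPIND1 and F11 held none of these letters, and FGA held 3 different ones. A promoter was found for 30 of the 35 genes. Of these, 7 held GTTAAT (APOH, F13B, F2, FGA, FGB, KLKB1 and PLG), against 6.23% of all 35114 promoter windows. The C/EBP letters stood in 8 of the 30 and in 9.05% of all windows, the FOXA letters in 5 and in 15.5%, and the TATA box in 3 and in 10.7%. The 30 genes had 35 windows, and a gene was counted when any of its windows held the letters. The counts of genes and the shares of windows are thus not in like units. The median GC content was 50.8% in the member windows and 58% in all windows. Whether the members differ from other promoters was not tested. A match is a run of letters and not a measured site.

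**Figure D3:**
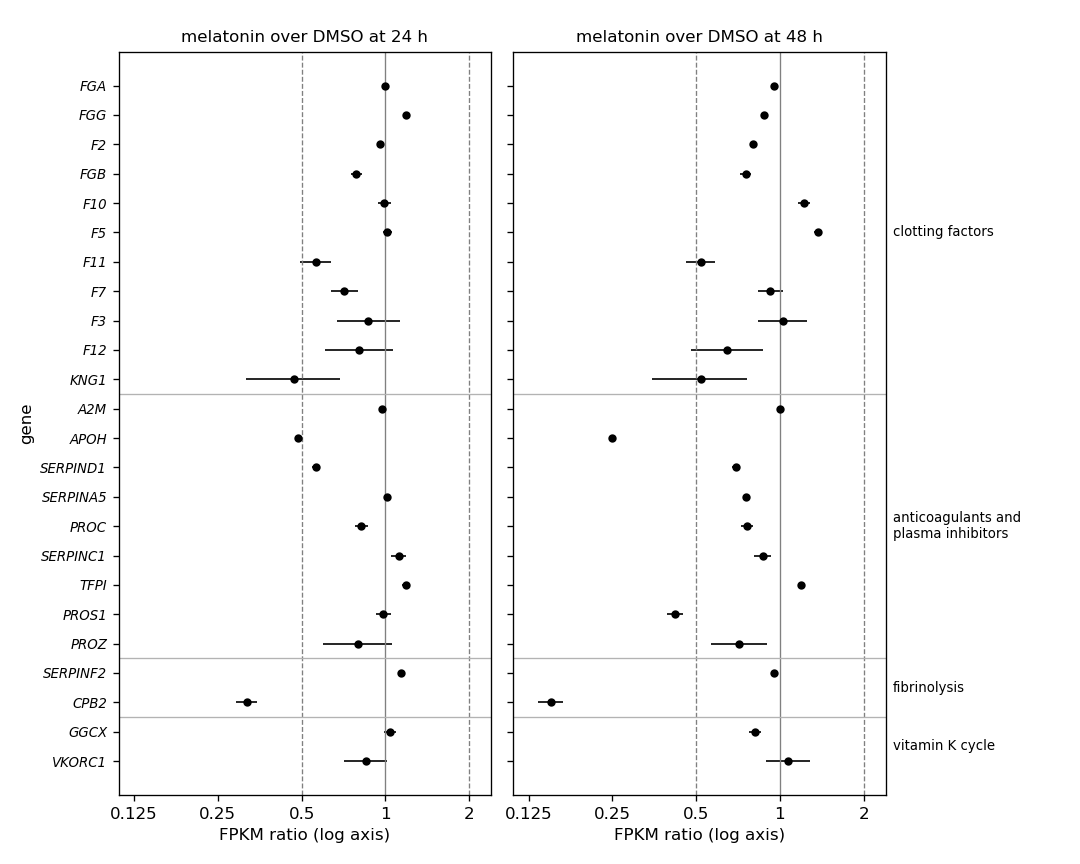
Ratio of melatonin to DMSO FPKM (log axis) at 24 h and 48 h for the same 24 genes, with 95% exact intervals from the reads. The dashed lines mark 0.5 and 2, and the solid line marks no difference. CPB2 lies farthest to the left at both times, and no gene lies to the right of 2.

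None of the clotting factors was called, out of 11 tested at 24 h and 10 at 48 h, a count near the 0.439% and 1.36% of protein-coding genes called lower. Fibrinogen is a hexamer of paired alpha, beta and gamma chains, whose genes FGA, FGB and FGG lie within 50.01 kb on chromosome 4 (hg38, 154562956 to 154612967). The FPKM of FGA was 377 in DMSO 24 h, 375 in melatonin 24 h, 363 in DMSO 48 h and 347 in melatonin 48 h. For FGG it was 325, 384, 322 and 282 in the same order, and for FGB it was 91.2, 71.8, 78.9 and 59.5. FGB was the least abundant chain in each library, with FGA at 4.14 to 5.84 times its level per length. It was also the only chain whose melatonin values both lay below both DMSO values, at 0.787 (0.754 to 0.822) and 0.753 (0.721 to 0.787) of DMSO. FGA stood at 0.994 (0.977 to 1.01) and 0.956 (0.941 to 0.971) of DMSO, and its sign at 24 h turned positive with TPM (0.16) and the plain sum (0.05), as did that at 48 h without mitochondrial genes in the library size (0.0044).

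Prothrombin, the zymogen of thrombin, is encoded by F2, whose FPKM was 298 and 285 at 24 h and 303 and 243 at 48 h. The ratio was 0.954 (0.932 to 0.977) and 0.8018 (0.784 to 0.8201), and the sign at 24 h turned positive with TPM. F10, the factor that in its active form cuts prothrombin, had an FPKM of 58.8 and 58.4 at 24 h and of 54.3 and 66.3 at 48 h. F5, the cofactor of activated factor X, stood at 43.9 and 44.6 at 24 h and at 50.9 and 69.7 at 48 h. Both were nearly level at 24 h, and at 48 h melatonin was above DMSO with ratios of 1.22 (1.16 to 1.28) for F10 and 1.37 (1.33 to 1.41) for F5. The latter was the highest ratio of the tested members at 48 h. F7, which starts the cascade together with tissue factor, had an FPKM of 9.86 and 7.03 at 24 h and of 8.63 and 7.97 at 48 h. Its ratio was 0.713 (0.636 to 0.799) and then 0.924 (0.831 to 1.03). F3, tissue factor itself, stood at 2.37 and 2.06 and at 3.03 and 3.10, from 120 to 198 reads, with intervals of the ratio that held 1 at both times. F7, F10 and PROZ lie within 66.6 kb on chromosome 13 (113105788 to 113172383), and their ratios at 48 h were 0.924, 1.22 and 0.714.

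The contact system, which starts clotting on charged surfaces, was expressed at low levels, with both melatonin libraries below both DMSO libraries for F11, F12 and KNG1, a pattern of 16.8% of the expressed protein-coding genes. KLKB1, the remaining member of the system, had 8 and 0 reads at 24 h and 7 and 9 at 48 h. F11, a serine protease that activates factor IX, had an FPKM of 10.7 (9.86 to 11.5) and 5.98 (5.41 to 6.59) at 24 h and of 10.5 (9.78 to 11.3) and 5.45 (4.93 to 6.01) at 48 h. Both melatonin libraries were near 0.5 of the DMSO level, at 0.561 (0.495 to 0.636) and 0.519 (0.459 to 0.586), and the log2 fold changes of -0.74 and -0.84 did not reach the threshold. F11-AS1, which overlaps F11 on the other strand, had 57 and 42 reads at 24 h and 89 and 43 at 48 h. KNG1, the kininogen that carries F11 and prekallikrein in plasma, stood at 1.18 and 0.554 and at 0.975 and 0.506, from 81, 42, 80 and 42 reads. Its ratios of 0.469 (0.315 to 0.689) and 0.519 (0.348 to 0.762) were as low as those of F11, but the pseudocount of 1 shrinks them to log2 fold changes of -0.49 and -0.39. At 48 h KNG1 missed the minimum FPKM. F12, the factor that starts the contact pathway, went from 2.12 to 1.71 and from 1.94 to 1.25, and its intervals were wide, with ratios of 0.805 (0.605 to 1.07) and 0.644 (0.477 to 0.866).

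Among the anticoagulants and plasma inhibitors, 9 genes were tested, of which 1 was called lower at 24 h and 2 at 48 h, beside the same 0.439% and 1.36% of protein-coding genes. SERPIND1, heparin cofactor II, an inhibitor of thrombin, had an FPKM of 179 (175 to 183) and 101 (98.3 to 104) at 24 h and of 187 (184 to 191) and 130 (127 to 133) at 48 h. Melatonin was at 0.564 (0.544 to 0.584) of DMSO at 24 h and 0.693 (0.673 to 0.714) at 48 h, which is short of the threshold. SERPIND1 lies within the span of PI4KA on the other strand, a gene with 1989 to 2924 reads. SERPINC1, antithrombin, stood at 56.8 and 63.4 at 24 h and at 43.5 and 37.8 at 48 h, above DMSO at the earlier time and below it at the later. SERPINA5, the protein C inhibitor, had an FPKM of 166 and 168 at 24 h and of 182 and 138 at 48 h. It was level at 24 h, with a ratio of 1.013 (0.987 to 1.04), and at 0.758 (0.740 to 0.777) of DMSO at 48 h.

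PROC, the zymogen of the protease that inactivates factors V and VIII, stood at 58.7 and 48.2 at 24 h and at 69.0 and 52.6 at 48 h. Its ratios were 0.821 (0.776 to 0.867) and 0.763 (0.727 to 0.801). Per length, the RNA level of PROC was 2.32 and 1.94 times that of PROS1 at 24 h and 2.04 and 3.71 times at 48 h. PROZ, the cofactor of an inhibitor of factor Xa, had an FPKM of 3.499 and 2.78 and of 5.04 and 3.60, from 94 to 184 reads. TFPI, the inhibitor of the tissue factor pathway, stood at 30.7 (30.0 to 31.5) and 36.4 (35.7 to 37.2) at 24 h and at 51.5 (50.6 to 52.4) and 61.1 (60.2 to 62.1) at 48 h. It was above DMSO by a similar ratio at both times, 1.18 (1.15 to 1.22) and 1.19 (1.16 to 1.22). AC007319.1, which overlaps TFPI on the other strand, had 372 and 109 reads at 24 h and 82 and 84 at 48 h. Other members with an expressed overlapping gene included F10 (AL137002.2, 60 to 417 reads), F12 (GRK6, 830 to 1407) and GGCX (MAT2A, 2431 to 6169). On the same strand, SERPINA4 overlapped SERPINA5 (443 to 907) and CYP4V2 overlapped KLKB1 (222 to 410). FUNDC2 (408 to 592) overlapped F8 on the other strand. How shared reads were assigned is not given in the sources used here.

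Among the vitamin K cycle and the proteins that depend on it, PROS1 was the only gene called, at 48 h. Of the protein-coding genes tested, 1.36% were called lower at that time and 0.439% at 24 h. GGCX stood at 18.0 and 18.8 at 24 h and at 17.8 and 14.5 at 48 h, with a ratio of 0.813 (0.774 to 0.854) at the later time. VKORC1 had an FPKM of 6.79 and 5.76 and of 5.02 and 5.36, and the intervals of both ratios held 1. Of the 7 vitamin K-dependent members, 6 were tested. All 6 had a log2 fold change below 0 at 24 h, where 42.1% of the protein-coding genes tested did. F2, F10 and PROS1 were above 0 there with TPM, on which the median of all genes was itself 0.17. At 48 h 5 of the 6 were below 0, where 51.0% of the protein-coding genes tested were.

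Of the 7 fibrinolysis genes, 5 had an FPKM below 1 in every library. PLG, plasminogen, stood at 0.598 and 0.425 at 24 h and at 0.715 and 0.459 at 48 h, from 55 to 100 reads. The activators PLAT and PLAU, the receptor PLAUR and the plasminogen-binding HRG had between 0 and 46 reads per library. PLAU had 19 and 22 reads at 24 h and 46 and 17 at 48 h, the latter a ratio of 0.365 (0.196 to 0.649). The brake on plasmin was at the other end of the scale. SERPINF2, the main inhibitor of plasmin, stood at 306 and 348 at 24 h and at 352 and 335 at 48 h, 493 to 820 times the level of PLG per length.

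The other genes below an FPKM of 1 in every library were F8, F9, F13A1, F13B, KLKB1 and THBD. F13A1, the catalytic subunit of the fibrin-linking factor XIII, had 0 reads in all libraries. The upper end of its interval was an FPKM of 0.0428 in the least deep, DMSO 24 h. F9 had 2 reads in melatonin 24 h and 0 elsewhere, F8 had 1 to 6, THBD (thrombomodulin, an endothelial receptor) had 0 to 5, and KLKB1 (prekallikrein) had 0 to 9. F13B, the carrier subunit of factor XIII, had 17 and 4 reads at 24 h and 20 and 5 at 48 h, ratios of 0.213 (0.0521 to 0.653) and 0.247 (0.0724 to 0.678). Below an FPKM of 1 in both libraries no gene can pass the threshold on the log2(FPKM + 1) scale.

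Both melatonin libraries lay below both DMSO libraries for 11 of the 24 expressed members, 45.8%, where 16.8% of the 10751 expressed protein-coding genes showed this. They were CPB2, APOH, PROS1, SERPIND1, F11, F12, KNG1, F2, F7, FGB and PROC. For 0 of the 24 did both melatonin libraries lie above both DMSO libraries, where 20.2% of the protein-coding genes did. By role, the 11 comprised 6 of 11 clotting factors, 4 of 9 anticoagulants and 1 of 2 fibrinolysis genes. The median log2 fold change of the tested members was -0.10 at 24 h and -0.28 at 48 h, where it was 0.04 and -0.01 for the protein-coding genes tested. Clotting factors had medians of -0.14 and -0.15, and anticoagulants of -0.05 and -0.39. With 2 fibrinolysis genes tested, CPB2 and SERPINF2, a median of that role is not informative. The differences between the roles were not tested, as each condition has 1 library. At 24 h 17 of the 24 tested members were below 0, where 42.1% of the protein-coding genes tested were. The count was 12 with TPM and 13 with the plain sum, which move all genes upward at that time, and 19 after centring on the median of all genes. At 48 h it was 18 of 23, and 16 to 19 under the other scalings, where 51.0% of the protein-coding genes were below 0. On the log2(FPKM + 1) scale, 18 of the 23 members tested at both times lay within 1.5-fold at each.

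A fit of treatment over both times with time as a block (limma, 1 residual degree of freedom), chosen after seeing the data, called 0 of the 24 members and 0% of 14612 genes at an adjusted p of 0.05. At an unadjusted limma p under 0.05 it gave 5 of the 24 members (CPB2, F11, APOH, SERPIND1 and FGB). It also gave 2494 of the 14612 genes, so the share of members lay near that of all genes. In a simulated check this fit also called some unchanged genes. CPB2 had a log2 fold change of -2.12 (SE 0.256, limma adjusted p = 0.0917), and APOH of -1.52 (SE 0.245, limma adjusted p = 0.121). PROS1, whose difference varied between the times, stood at -0.61 (SE 0.283, limma adjusted p = 0.347).

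**Figure D4:**
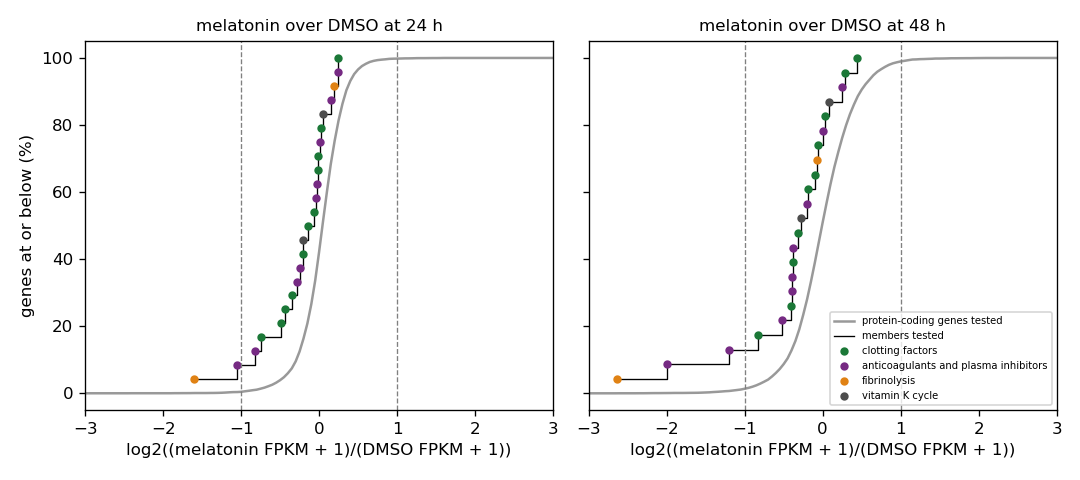
Share of genes (%) at or below each log2((melatonin FPKM + 1)/(DMSO FPKM + 1)) at 24 h and 48 h, for the protein-coding genes tested (grey line) and the members tested (steps, points coloured by role). The members lie to the left of the grey line through most of its range, and 2 points at 24 h and 3 at 48 h lie left of the dashed line at -1.

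The time in culture was compared within each treatment, and these comparisons use the same libraries as those above. No member was called between the DMSO libraries, where 4.24% of all 13854 genes were lower and 3.5% higher at 48 h. None was called between the melatonin libraries either, where 1.71% of all 13489 genes were lower and 2.45% higher. Among the tested members TFPI was the highest, with 48 h over 24 h at 1.68 (1.63 to 1.73) with DMSO and 1.68 (1.64 to 1.72) with melatonin. With TPM both passed the threshold, on a scale that moved the median of all genes by 0.46 and 0.27. APOH with melatonin was the lowest of them, at 0.5005 (0.486 to 0.516), just short of the threshold, while with DMSO it was at 0.973 (0.956 to 0.990). CPB2 was at 1.25 (1.18 to 1.33) with DMSO and at 0.593 (0.525 to 0.669) with melatonin, and PROS1 at 1.34 (1.27 to 1.42) and 0.571 (0.534 to 0.611). SERPINC1 was below its level of 24 h with both treatments, at 0.766 (0.717 to 0.819) and 0.596 (0.558 to 0.637).

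A list of 36 other genes of the pathway (receptors, transport proteins, other serpins and other vitamin K-dependent proteins) showed 0 calls among 21 tested at 24 h and 3 among 22 at 48 h. VTN, vitronectin, an adhesive plasma protein, fell from an FPKM of 62.6 to 21.5, and F2RL1, a protease-activated receptor, from 19.7 to 9.35. PLGRKT, a plasminogen receptor, rose from 1.28 to 3.92, from 42 and 130 reads. SERPINA10, the partner of protein Z, had an FPKM of 5.59 and 3.31 and of 4.32 and 4.30. PROCR, the protein C receptor, and VWF, both typical of endothelium, stayed at or below 1.05 and 0.126. The list's medians were -0.01 and -0.04. Of all genes tested at 48 h, 3.32% were called lower and 2.39% higher.

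Lists of complement genes and of major liver plasma proteins had medians below 0 too. For 27 complement genes the median was -0.24 at 24 h and -0.44 at 48 h, with 1 of 20 and 6 of 22 tested genes called lower and none higher. For 27 major plasma proteins, which share VTN and SERPINA1 with the pathway list, it was -0.23 and -0.62, with 1 of 24 and 7 of 24 called lower and TTR called higher at 48 h. Of the protein-coding genes tested, 0.439% were called lower at 24 h and 1.36% at 48 h. The differences between these lists and the coagulation genes were not tested.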

How the data were processed

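Polyadenylated RNA of 4 HepG2 cultures was sequenced by the authors, whose methods name MapSplice on hg38 and Cufflinks. The submitters' processing notes name Bowtie2 2.0.6, TopHat2 2.0.9, Cufflinks 2.1.1 and Cuffdiff 2.1.1. The role of each, the annotation and the strand setting are not given in the sources used here. The authors deposited FPKM per gene with the gene length and without counts. In each library 100% of the values above 0 were, after multiplication by length, within 0.01 of whole multiples of 1 step, and the reads were taken from these. The implied library sizes were 18357838 to 22205042, below the reads on genes.

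Intervals are exact Poisson intervals for a level and exact conditional binomial intervals for a ratio. Neither measures the spread between cultures. A pseudocount of 1, a minimum FPKM of 1 and a 2-fold threshold were used. Every member was to be named, as were called genes of the pathway list and SERPINA10, PROCR and VWF, and HNF4A, CEBPA and FOXA2 among the transcription factors. Further genes that the rule names are not reported here. TTR, AFP, NR1H4, NR0B2 and the genes named beside overlaps were picked after their values were seen. The members and lists were chosen with earlier results of these data known. The calculation was tested on simulated reads for 58302 genes, where 200 of 200 changed genes were called at 24 h. These genes were moved 4-fold, well beyond the threshold, and the simulated reads held counting error only. The check thus covers the arithmetic, and not the spread between cultures or the calls made here. Python 3.11, numpy 2.4.6, pandas 2.3.3, scipy 1.17.1, matplotlib 3.10.9, R 4.3.3 and limma 3.58.1 were used. Alternatives were another pseudocount, FPKM minimum, read minimum, threshold and 4 other scalings. Splicing was not analysed here.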

Additional observations from a re-analysis of the deposited data

Results flagged for a closer look

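In 3 members the melatonin library was above DMSO at 24 h and below it at 48 h with intervals of both ratios that left out 1. In FGG the log2 fold change at 48 h minus that at 24 h was -0.43, from ratios of 1.18 (1.16 to 1.20) and 0.875 (0.859 to 0.891). In SERPINC1 it was -0.35, from 1.12 (1.05 to 1.19) and 0.869 (0.810 to 0.932). In SERPINF2 it was -0.26, from 1.14 (1.11 to 1.17) and 0.952 (0.933 to 0.972). The intervals cover counting error only, with 1 library per condition, and the difference between the times was not tested. These 3 genes had no sign change under the alternatives run. For SERPINF2 at 48 h the log2 fold change of -0.0703 was -0.0358 with the plain sum. It was -0.0015 without mitochondrial genes in the library size, where DMSO and melatonin were nearly level. The size of the difference thus depended on the scaling, while its sign did not change in the settings run.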

How the results depend on the processing

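No alternative reversed a called gene, and CPB2 at both times and APOH and PROS1 at 48 h were called under all of them. The count of members called at 24 h was 2, and it was 1 under either TPM or the plain sum. With a 1.5-fold threshold it was 4 of 24 (SERPIND1 and F11 added), where 1023 of all 13582 genes tested were lower and 546 higher. The count called at both times, 2 in the main setting, was 1 with TPM and with the plain sum, since APOH at 24 h dropped out. It was 3 with the 1.5-fold threshold. Between the DMSO libraries the count of 0 became 1 with a 1.5-fold threshold and 1 with TPM, and between the melatonin libraries 6 and 1. At the 1.5-fold threshold 1746 of all 13854 genes were lower and 1550 higher between the DMSO libraries. Between the melatonin libraries 816 of all 13489 genes were lower and 912 higher. The median at 24 h of -0.10 was -0.07 without a minimum FPKM (-0.0675), -0.0334 with a minimum of 5, -0.041 with TPM, -0.0476 with the plain sum and -0.1396 with at least 50 reads. That at 48 h of -0.28 was -0.1925 without a minimum and -0.4033 with TPM. TPM moved the median of all genes by 0.15 at 24 h, with 715 genes called higher and 846 lower in place of 193 and 398, and the plain sum moved it by 0.14 and 0.11 in the comparisons of time. Between the DMSO libraries, 2947 genes were called higher and 704 lower with TPM and 609 and 376 with the plain sum, in place of 485 and 587, so calls in time depend on the scaling. The 11 members with both melatonin libraries below both DMSO libraries were 8 with TPM and at most 14, without a minimum FPKM, counting either side. Of 282 values for single genes under settings that could change them, 277 kept their side of the threshold, and 16 uncalled values in 8 genes changed sign under another scaling. Levels under about 3 reads could not be measured at this depth, and no analysis paired by replicate number was run, since each condition has 1 library. The fit with time as a block is given with the results.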

Other observations

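Transcription factors of the liver were read in the same libraries, as values only. HNF4A had an FPKM of 59.5 in DMSO 24 h, 53.7 in melatonin 24 h, 34.9 in DMSO 48 h and 43.8 in melatonin 48 h. CEBPA stood at 21.8, 22.4, 14.5 and 14.0 in the same order. FOXA2 stood at 22.8, 16.5, 31.9 and 15.5. Among the 17 factors of the list, NR1H4, the bile acid receptor, fell at 48 h from 14.3 to 4.33, and NR0B2 rose at 24 h from 32.7 to 67.7. The part of these genes in the levels of the coagulation genes was not tested.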
